A study of Danio rerio with 14 samples.

Results

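Immediate early genes are switched on within minutes of a stimulus, from transcription factors already in the cell. Fos and Jun, whose proteins form the dimeric factor AP-1, are the best known of them, but many immediate early genes encode other proteins. Accessibility at 5 such genes outside AP-1 was followed in chromatin of zebrafish heart muscle cells: dusp1, gadd45ba, ier5, klf9 and mcl1a. Every peak of open chromatin that the authors' annotation assigned to one of these genes was taken, which gave 8 of 16610 peaks in one table, 8 of 6339 in the other, and 16 of 22949 in both.

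The series addresses AP-1 in zebrafish heart regeneration and measures accessibility by ATAC-seq, in which a transposase inserts sequencing adapters into open chromatin. It holds 14 libraries of 6 groups, each library made from the ventricles of 6 adult hearts. The first table, called the shared table here, has 2 libraries each of 4 groups. One is of gata4:EGFP+ cardiomyocytes, which mark regenerating muscle, 4 days after cryoinjury. The others are of uninjured hearts: myl7:nucDsRed+ cardiomyocytes, and cardiomyocytes 7 days after overexpression of junba or of junbb was induced. The second table, called the A-Fos table, has 3 libraries each of wound border cardiomyocytes 4 days after cryoinjury with A-Fos, a dominant-negative protein that pairs with Jun and keeps it off DNA, and without it. The transgenes were induced by injecting 4-hydroxytamoxifen, with ethanol as the control. Cryoinjured fish were 4 to 12 months old and of both sexes. The gata4:EGFP+ and myl7:nucDsRed+ cells were sorted by fluorescence, and the cells of the other groups were isolated on a density gradient. The junba and junbb reactions used 50000 cells and all others 5000. The constructs carry the prefix CM in the labels, and the promoters behind them are not given in the sources used here.

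These differences limit each comparison. Injury cannot be told apart from the sorted population between gata4:EGFP+ and myl7:nucDsRed+ cells. Between junba or junbb and myl7:nucDsRed+ cells, overexpression cannot be told apart from the injected drug, the isolation method or the number of cells. Nor can it be told apart from the mix of cell types in a library. No injection is given for the sorted groups. Between A-Fos(+) and A-Fos(-) cells, A-Fos cannot be told apart from the injected drug, since ethanol was the control. Beyond the pools of hearts nothing in the labels says that replicates are of separate animals, so the p-values measure only how these samples spread. Because each library is a bulk sample, fewer cells of a type and less signal per cell cannot be told apart.

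The members act at different points of stress and growth signalling. DUSP1 is a phosphatase that removes the activating phosphates from MAP kinases, and its gene is induced by the same kinases it turns off. GADD45B binds a kinase upstream of p38 and JNK in mammalian cells, and IER5 is known in mammalian cells as a partner of the phosphatase PP2A and of the heat shock factor HSF1. MCL1 is a short-lived survival protein of the BCL2 family. KLF9 is a zinc finger transcription factor whose gene responds to glucocorticoids in fish and in mammals. In the authors' KEGG columns dusp1 and gadd45ba were listed under MAPK signalling, gadd45ba and mcl1a under apoptosis, and ier5 and klf9 under no pathway.

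Each gene had one peak at its transcription start site, and gadd45ba and klf9 had further peaks. A promoter peak here has its centre within 500 bp of the start site, which held for 5 of the 8 member peaks in each table, and coordinates are those of the deposited tables on the zebrafish build that the submitters name danRer11 or GRCz11. The promoter peak of dusp1 (ENSDARG00000100515, minus strand, gene at chr14:15760253-15763648) spanned 15763300-15763946 and was centred 25 bp from the start site. The promoter peak of gadd45ba (ENSDARG00000027744, plus strand, chr11:6456146-6457748) spanned 6455959-6456479, and a narrower peak at 6460686-6460990 lay downstream of the gene, 4692 bp from the start site. The promoter peak of ier5 (ENSDARG00000009881, plus strand, chr22:16497670-16499153) was the widest at 1052 bp, at 16496953-16498005. The promoter peak of mcl1a (ENSDARG00000009779, plus strand, chr19:348729-353231) spanned 348532-349116. At klf9 (ENSDARG00000068194, plus strand, chr5:26075230-26078165) one peak lay upstream of the gene at 26071665-26072101, 3347 bp from the start site. The second, at 26074998-26075291, covered the start site, and the third, at 26075908-26076550, lay wholly inside the gene. The 8 peaks of the A-Fos table lay wholly within their counterparts in the shared table and covered 53.4 to 80.5% of them.

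**Figure D1:**
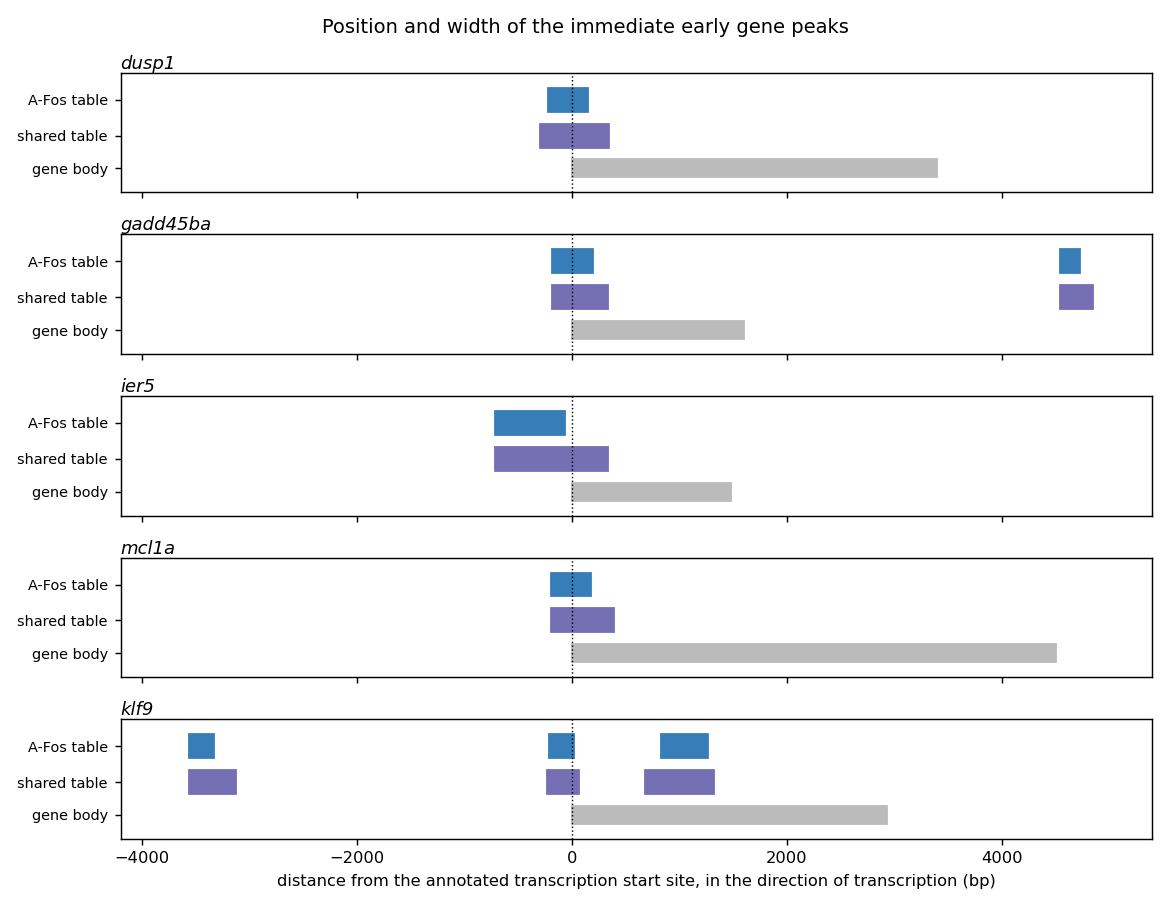
Position of each member peak relative to the transcription start site of its gene (bp, along the direction of transcription), with the gene body drawn to scale and the peaks of both tables as bars. Each gene has a peak over or beside its start site, gadd45ba has a further peak downstream of the gene, and klf9 has 1 peak upstream and 1 inside the gene.

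Signal is given throughout as the authors' normalized counts, which can be compared within a table only. The mean signal of the member peaks stood at percentiles 59.9 to 98.4 of the tested peaks of the shared table, with all 8 above the median peak. Of the 8 in the A-Fos table, 7 were above the median peak and the range was 29.7 to 90.4, with the peak downstream of gadd45ba the lowest. All 8 member peaks of each table passed the filter on low values, a mean of at least 10. Per 100 bp of peak, mean signal in the shared table was highest at the gadd45ba promoter (30.6) and the klf9 promoter (24.9). It was 20.3 in the klf9 gene, 19.5 at ier5, 19.2 at dusp1 and 17.5 at mcl1a, and lowest upstream of klf9 (13.0) and downstream of gadd45ba (12.0). Reads in peaks, estimated from the steps between values, ran from 468462 to 1451740 a library in the shared table and from 129391 to 811239 in the A-Fos table. By this estimate the member values of the shared table stood for at least about 21 reads each and those of the A-Fos table for at least about 9, so the A-Fos values are less precise. The junba promoter, at one of the overexpressed genes, held 161 and 147 normalized counts in junba against 153 and 138 in myl7:nucDsRed+ libraries; a peak at the native gene does not measure a transgene.

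Regenerating gata4:EGFP+ cardiomyocytes were less accessible than uninjured myl7:nucDsRed+ cardiomyocytes at the promoters of dusp1, gadd45ba and ier5. The promoter of mcl1a, the downstream peak of gadd45ba and the 3 peaks of klf9 did not pass the test. Of the 8 member peaks 3 were lower and 0 higher at an adjusted p under 0.05 (limma, two-sided, Benjamini-Hochberg). Over all 14776 peaks tested, 6.61% were lower and 12.3% higher in this comparison. The 3 called peaks were lower without overlap between the groups, as were 32.2% of all tested peaks.

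At the dusp1 promoter the values were 63 and 47 in gata4:EGFP+, 158 and 159 in myl7:nucDsRed+, 155 and 140 in junba, and 135 and 134 in junbb libraries. Both gata4:EGFP+ libraries lay far below the other 6, and the 3 uninjured groups lay close together. The mean of 55 ± 11.3 in gata4:EGFP+ against 158.5 ± 0.707 in myl7:nucDsRed+ (SD, n = 2) gave a log2 change of −1.46 ± 0.23 (SE, limma adjusted p = 0.000287). The call held whichever of the 4 libraries was left out (log2 −1.65 to −1.27, adjusted p 0.00597 to 0.0208).

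At the gadd45ba promoter the values were 101 and 81 in gata4:EGFP+, 217 and 235 in myl7:nucDsRed+, 154 and 153 in junba, and 160 and 170 in junbb libraries. Here the junba and junbb libraries stood between the injured and the uninjured sorted cells, and no group overlapped with gata4:EGFP+ or myl7:nucDsRed+. The change from myl7:nucDsRed+ to gata4:EGFP+ was −1.27 ± 0.21 (adjusted p = 0.000498), and it held in each omission of a library (adjusted p 0.00703 to 0.0279). The changes to junba (−0.54 ± 0.21, limma adjusted p = 0.0626) and to junbb (−0.44 ± 0.21, adjusted p = 0.125) did not pass, and groups that did not overlap in the lower direction were found at 32.4% and 33.1% of all tested peaks. With libraries centred on promoter peaks both changes passed (−0.68, limma adjusted p = 0.0214, and −0.59, adjusted p = 0.0391). This was 1 of 10 other settings for each change. Over the 10 settings the change ran from −0.68 to −0.42 with junba (adjusted p up to 0.243). With junbb it ran from −0.59 to −0.14 (adjusted p up to 0.7).

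At the ier5 promoter the values were 170 and 107 in gata4:EGFP+, 204 and 270 in myl7:nucDsRed+, 230 and 216 in junba, and 212 and 228 in junbb libraries. Both gata4:EGFP+ libraries were below the other 6, but one of them came close to the lowest myl7:nucDsRed+ library. The change was −0.78 ± 0.23 (limma adjusted p = 0.022), and its call did not hold in each omission of a library. Without gata4:EGFP+ replicate 2 the change was −0.45 and without myl7:nucDsRed+ replicate 2 it was −0.58. Leaving out a library lowers the power at every peak, so an ended call alone does not show dependence on that library.

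The peak downstream of gadd45ba differed in pattern from the promoter of the same gene. It held 37 and 38 in gata4:EGFP+, 51 and 27 in myl7:nucDsRed+, 30 and 43 in junba, and 38 and 28 in junbb libraries, with all groups overlapping. The change from myl7:nucDsRed+ to gata4:EGFP+ was 0.01 (95% interval −0.73 to 0.74), and no comparison called it. Its spread over the 8 libraries (SD 0.28 on the log2 scale) was at percentile 8.30 of all tested peaks, whereas that of the dusp1 promoter (0.64) was at percentile 60.6.

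Promoters as a class moved slightly in this comparison. The 5653 tested peaks within 500 bp of a start site had a median log2 change of −0.21, with 7.78% lower and 2.57% higher. Measured from that median, dusp1 changed by −1.24, gadd45ba by −1.06 and ier5 by −0.56. Among these promoter peaks the change stood at percentile 0.955 for dusp1, 1.75 for gadd45ba and 11.8 for ier5, and at 49.3 for mcl1a and 87.4 for klf9.

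**Figure D2:**
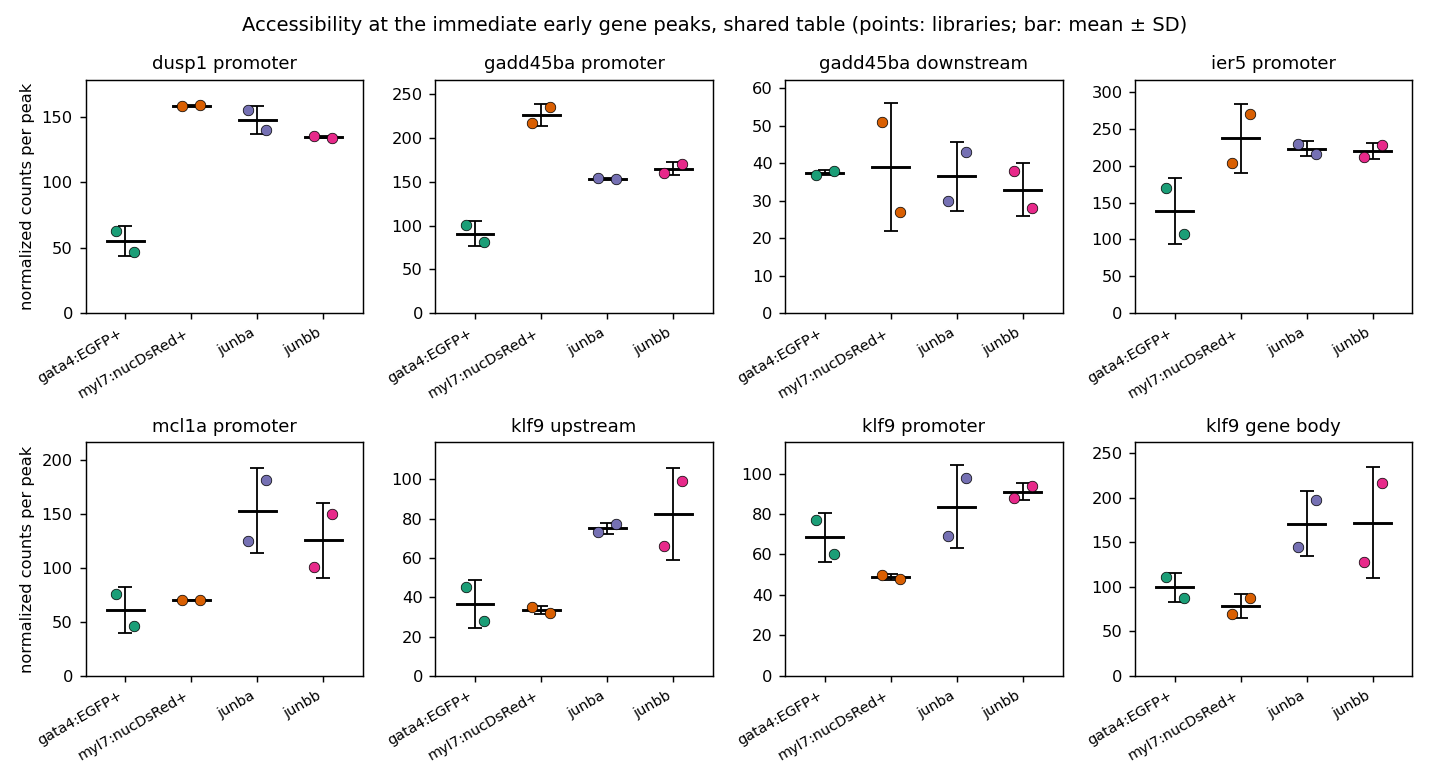
Normalized counts of each member peak in the 8 libraries of the shared table, one panel per peak, with points for libraries and bars for group means ± SD. The 2 gata4:EGFP+ points lie below all others at the dusp1, gadd45ba and ier5 promoters, and the junba and junbb points lie above both sorted groups at the mcl1a promoter and upstream of klf9.

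Libraries labelled as cardiomyocytes overexpressing junba or junbb were more accessible at mcl1a and klf9 than those of uninjured myl7:nucDsRed+ cardiomyocytes. Their cardiomyocyte marker peaks summed to 288 to 520 and 268 to 303 normalized counts, against 1187 to 1295 in myl7:nucDsRed+ libraries. Endothelial and endocardial marker peaks summed to 460 to 526 and 711 to 764, against 125 to 135. The part of cell composition in the changes at the members was not tested. With junba, 3 of the 8 member peaks were higher and 0 lower, where 10.3% of all tested peaks were higher and 15.9% lower. With junbb, 4 were higher and 0 lower, where 12.6% of all tested peaks were higher and 16.3% lower. Among promoter peaks 11.9% were higher and 5.52% lower in either comparison, and their median log2 changes were 0.16 and 0.17. Among them the change with junba and with junbb stood at percentiles 91.2 and 83.9 for mcl1a and 80.7 and 85.8 for klf9. The percentiles were 33.5 and 24.6 for dusp1, 13.4 and 14.7 for gadd45ba, and 35.0 and 32.1 for ier5. Higher without overlap between the groups were 26% of all tested peaks with junba and 30.4% with junbb. Both comparisons share the myl7:nucDsRed+ libraries, so they are not independent of each other.

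At the mcl1a promoter the values were 76 and 46 in gata4:EGFP+, 70 and 70 in myl7:nucDsRed+, 125 and 181 in junba, and 101 and 150 in junbb libraries. All 4 overexpressing libraries lay above all 4 sorted ones, and the sorted groups overlapped. The change from myl7:nucDsRed+ was 1.05 ± 0.28 with junba (limma adjusted p = 0.00808) and 0.77 ± 0.28 with junbb (adjusted p = 0.0394). In 10 other settings of scaling, filter and model the junba call held in 10 (0.92 to 1.17). The junbb call held in 7 of 10 (0.62 to 1.06, adjusted p up to 0.127). The junba call ended without myl7:nucDsRed+ replicate 2 (1.05, adjusted p = 0.0531) or junba replicate 2 (0.79, adjusted p = 0.0862). The junbb call ended without myl7:nucDsRed+ replicate 1 (0.77, adjusted p = 0.13), myl7:nucDsRed+ replicate 2 (0.77, adjusted p = 0.134) or junbb replicate 2 (0.50, adjusted p = 0.363).

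Upstream of klf9 the values were 45 and 28 in gata4:EGFP+, 35 and 32 in myl7:nucDsRed+, 73 and 77 in junba, and 66 and 99 in junbb libraries. The overexpressing groups did not overlap with the sorted ones, which overlapped with each other. The change from myl7:nucDsRed+ was 1.06 ± 0.31 with junba (limma adjusted p = 0.0159) and 1.16 ± 0.31 with junbb (adjusted p = 0.00754). Leaving out myl7:nucDsRed+ replicate 1 (1.11, adjusted p = 0.0527), myl7:nucDsRed+ replicate 2 (0.9995, adjusted p = 0.0831) or junba replicate 2 (1.02, adjusted p = 0.0563) ended the junba call. The junbb call ended without myl7:nucDsRed+ replicate 2 (1.103, adjusted p = 0.0505) or junbb replicate 2 (0.88, adjusted p = 0.145).

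At the klf9 promoter the values were 77 and 60 in gata4:EGFP+, 50 and 48 in myl7:nucDsRed+, 69 and 98 in junba, and 88 and 94 in junbb libraries. The myl7:nucDsRed+ libraries were the lowest, and those of gata4:EGFP+ and junba overlapped. The change was 0.83 ± 0.27 with junbb (limma adjusted p = 0.0249) and 0.69 ± 0.27 with junba (adjusted p = 0.0629). In 10 other settings the junbb call held in 8 (0.68 to 1.11, adjusted p up to 0.0691), and the junba change passed in 1. The junbb call ended in each of the 4 omissions. It was 0.86 without myl7:nucDsRed+ replicate 1 (adjusted p = 0.0747), 0.80 without myl7:nucDsRed+ replicate 2 (adjusted p = 0.0979), 0.87 without junbb replicate 1 (adjusted p = 0.0844) and 0.78 without junbb replicate 2 (adjusted p = 0.145). The junba change passed without junba replicate 1 (0.93, adjusted p = 0.0234). Between gata4:EGFP+ and myl7:nucDsRed+ the groups did not overlap either, but the change of 0.44 ± 0.27 did not pass (adjusted p = 0.28), and 29% of all tested peaks were higher without overlap in that comparison.

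Inside the klf9 gene the values were 111 and 88 in gata4:EGFP+, 69 and 88 in myl7:nucDsRed+, 145 and 197 in junba, and 128 and 216 in junbb libraries. Again the overexpressing libraries were all above the sorted ones, and the sorted groups met at 88. The change from myl7:nucDsRed+ was 1.07 ± 0.26 with junba (limma adjusted p = 0.00488) and 1.05 ± 0.26 with junbb (adjusted p = 0.00436). The junba call ended without myl7:nucDsRed+ replicate 1 (0.90, adjusted p = 0.0628) or junba replicate 2 (0.85, adjusted p = 0.0528). The junbb call ended without myl7:nucDsRed+ replicate 1 (0.88, adjusted p = 0.0624) or junbb replicate 2 (0.68, adjusted p = 0.142).

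The promoters that were lower in gata4:EGFP+ cells were not called in the overexpressing ones. At dusp1 the change from myl7:nucDsRed+ was −0.10 with junba (95% interval −0.58 to 0.37) and −0.23 with junbb (−0.70 to 0.24). At ier5 it was −0.07 (−0.55 to 0.40) and −0.09 (−0.57 to 0.38). At the gadd45ba promoter it was −0.54 (−0.98 to −0.10) and −0.44 (−0.88 to −0.0018). Both of these intervals lay below 0. Each change passed in 1 of 10 other settings, centring on promoter peaks. The peak downstream of gadd45ba, which was not lower in gata4:EGFP+ cells, changed by −0.05 (−0.78 to 0.69) and −0.17 (−0.90 to 0.57).

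**Figure D3:**
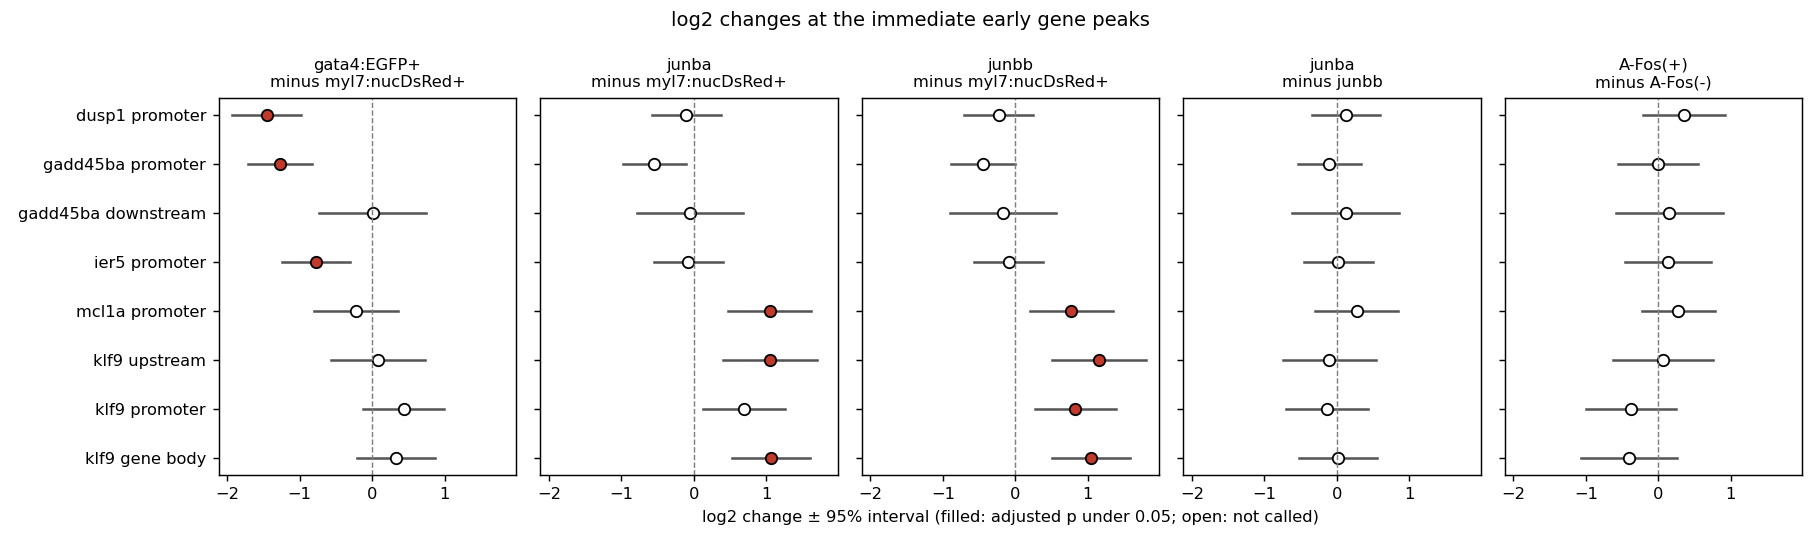
Log2 change of each member peak in 5 comparisons, with 95% intervals from limma, filled where the adjusted p was under 0.05. The intervals at the dusp1, gadd45ba and ier5 promoters lie below 0 for gata4:EGFP+ minus myl7:nucDsRed+, those at mcl1a and klf9 lie above 0 for junba and junbb minus myl7:nucDsRed+, and every A-Fos interval spans 0.

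The gata4:EGFP+ cells were also compared with the overexpressing ones at the member peaks. These groups differ at once in injury, in the overexpressed gene and in the drug injected to induce it. They also differ in the isolation method and in the number of cells, and none of these can be told apart. Against junba, 6 of the 8 peaks were lower in gata4:EGFP+ and 0 higher, and against junbb also 6 and 0. Over all tested peaks 11.8% and 13.8% were lower, and among promoter peaks 19% and 18.2%, against 3.02% and 3.13% higher, with median log2 changes of −0.36 and −0.38. Without overlap 6 and 7 member peaks were lower, where 30.1% and 34.3% of all tested peaks were. These comparisons use the same libraries as those above, and the lower peaks are dusp1, gadd45ba (promoter), ier5, mcl1a and klf9 (upstream and inside the gene) in each of them.

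The dusp1 promoter gave −1.36 ± 0.23 against junba (limma adjusted p = 0.000233) and −1.23 ± 0.23 against junbb (adjusted p = 0.000506), and both calls held in every omission of a library. At mcl1a the change was −1.27 ± 0.28 (adjusted p = 0.00169) and −0.996 ± 0.28 (adjusted p = 0.0087). At the gadd45ba promoter it was −0.73 ± 0.21 (adjusted p = 0.0118) and −0.83 ± 0.21 (adjusted p = 0.00499). Without gata4:EGFP+ replicate 2 the dusp1 change was −1.16 against junba and −1.04 against junbb. Calls at other member peaks ended in that omission. Leaving out a library lowers the power at every peak, so the ended calls alone do not show dependence on that library.

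At ier5 the change was −0.70 ± 0.23 against junba (limma adjusted p = 0.0227) and −0.68 ± 0.23 against junbb (adjusted p = 0.025). Upstream of klf9 it was −0.98 ± 0.31 (adjusted p = 0.0199) and −1.08 ± 0.31 (adjusted p = 0.0108), and inside the gene −0.74 ± 0.26 (adjusted p = 0.0318) and −0.72 ± 0.26 (adjusted p = 0.0348). The klf9 promoter did not pass (−0.26, adjusted p = 0.483, and −0.39, adjusted p = 0.264), nor did the peak downstream of gadd45ba (0.05, adjusted p = 0.923, and 0.17, adjusted p = 0.723). Not every call held when 1 library was left out. Against junba the change then ran from −1.02 to −0.38 at ier5. It ran from −1.28 to −0.68 upstream of klf9 and from −0.96 to −0.53 inside the gene. Against junbb these ranges were −1.01 to −0.36, −1.38 to −0.78 and −1.09 to −0.36. Centring on promoter peaks gave 2 calls against junba and 1 against junbb. Over all 14776 tested peaks centring gave 699 and 852 lower, against 1749 and 2038 in the authors' scaling.

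No member peak differed detectably between junba and junbb. The changes ran from −0.14 at the klf9 promoter to 0.28 at mcl1a, and the smallest unadjusted p was 0.325 (limma adjusted p 0.783 to 0.99). Of all tested peaks 0.088% were called in this comparison, and 10.1% had an unadjusted p under 0.05 against 0 of the 8 member peaks. The 95% intervals leave room for differences of moderate size, from −0.35 to 0.60 at dusp1, from −0.54 to 0.34 at the gadd45ba promoter and from −0.46 to 0.50 at ier5. They ran from −0.30 to 0.85 at mcl1a and, at klf9, from −0.75 to 0.54 upstream, from −0.70 to 0.43 at the promoter and from −0.52 to 0.56 inside the gene.

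With A-Fos, no member peak changed detectably in wound border cardiomyocytes. By limma 0 of the 8 peaks were called, 0 of them had an unadjusted p under 0.05, and every adjusted p was 1. The share of all 6012 tested peaks called was 0%. An unadjusted p under 0.05 was reached by 200 peaks (3.33%), and by 217 with plain empirical Bayes, which also called 0. With the replicate number as a block it was reached by 400 peaks, and 0 were called.

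The dusp1 promoter held 50, 57 and 61 normalized counts with A-Fos and 38, 49 and 41 without. Each A-Fos(+) library was above each A-Fos(-) library, and the change was 0.36 ± 0.27 (95% interval −0.21 to 0.92). The mcl1a promoter held 95, 105 and 84 with A-Fos and 82, 75 and 74 without, also without overlap, and changed by 0.28 ± 0.24 (−0.23 to 0.78). Of all tested peaks 3.34% were higher without overlap in this comparison.

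At the gadd45ba promoter the values were 96, 55 and 72 with A-Fos and 84, 65 and 70 without, which spanned the same range (change −0.00065, 95% interval −0.55 to 0.55). The ier5 promoter held 122, 53 and 81 with A-Fos and 77, 84 and 61 without (0.13, −0.46 to 0.72). Downstream of gadd45ba the values were 29, 14 and 26 with A-Fos and 25, 17 and 17 without (0.15, −0.59 to 0.90).

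The klf9 peaks overlapped between the groups as well. The upstream peak held 44, 24 and 29 with A-Fos and 27, 25 and 39 without (0.06, −0.62 to 0.75). The promoter held 47, 33 and 29 with A-Fos and 59, 39 and 47 without (−0.37, −0.998 to 0.25), and the peak inside the gene 64, 36 and 26 with A-Fos and 66, 59 and 40 without (−0.41, −1.07 to 0.26). The widest of the 8 intervals reached 0.74 to either side of its estimate.

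**Figure D4:**
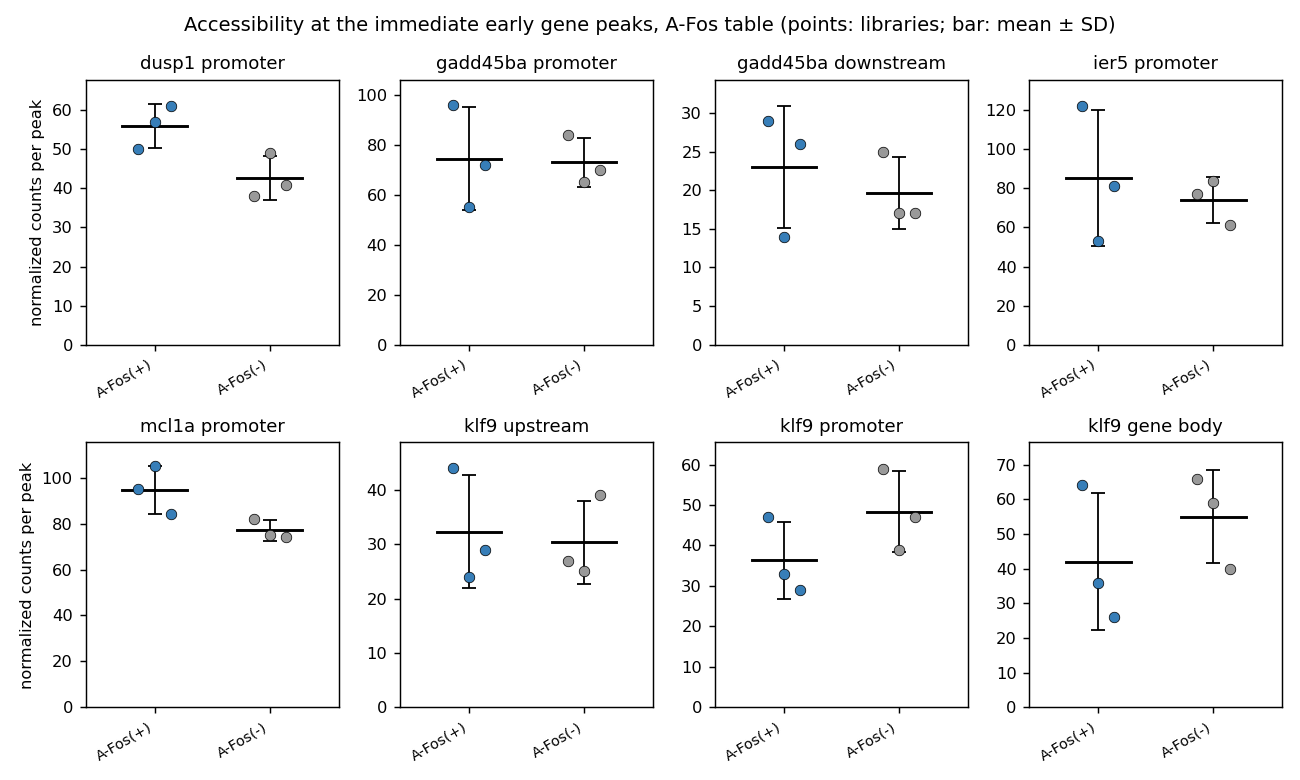
Normalized counts of each member peak in the 3 A-Fos(+) and 3 A-Fos(-) libraries, one panel per peak, with points for libraries and bars for group means ± SD. The groups separate without overlap at the dusp1 and mcl1a promoters and overlap at the other 6 peaks, and 0 of the 8 peaks passed the test.

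The members were set beside other immediate early genes and beside their own families. Of 66 immediate early genes without AP-1, 42 had a peak in the shared table, with 56 peaks tested. From myl7:nucDsRed+ to gata4:EGFP+, 5 were higher and 7 lower (median log2 change −0.15, against −0.06 for all peaks). The split depended on scaling and was 8 and 4 with equal totals, 10 and 5 with centring on promoter peaks, and 9 and 6 with quantile normalization. Of all 14776 tested peaks, 2170 were higher and 302 lower with equal totals. These were 2322 and 436 with centring, and 1822 and 1418 with quantile normalization. In the authors' scaling 12.3% of all tested peaks were higher and 6.61% lower. The members supplied 3 of the 7 lower peaks of the list and none of the higher ones. The largest changes among the others were a peak 2981 bp from socs3a, a cytokine signalling inhibitor (2.42, limma adjusted p = 7.88e-05), and the promoter of gadd45ga (−1.62).

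With junba, 8 of the 56 peaks were higher and 2 lower (median −0.04), of which 3 and 0 were member peaks. With junbb, 10 were higher and 2 lower (median 0.05), of which 4 and 0 were member peaks. Centring on promoter peaks changed these to 8 and 7 and to 5 and 5. Of all 14776 tested peaks, 1129 were then higher and 2863 lower with junba, and 1402 and 2876 with junbb. Before that centring, of the 48 list peaks that were not member peaks, 5 were higher with junba and 6 with junbb. Over all tested peaks 10.3% and 12.6% were higher, and 15.9% and 16.3% lower. Of 40 peaks of the list tested in the A-Fos table, 0 were called.

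Among the dual-specificity phosphatases, 12 peaks were tested and 2 were lower in gata4:EGFP+ cells, dusp1 and dusp4 (−1.097, limma adjusted p = 0.0117), and 0 higher. Over all tested peaks 6.61% were lower in gata4:EGFP+ cells. With junba 1 was higher, a peak 4648 bp from the start site of dusp23b (1.04), where 10.3% of all tested peaks were higher. The promoter of dusp23b was not called with junba (−0.59). With junbb 0 were called in either direction. The gadd45 family had 4 tested peaks. The promoter of gadd45ga, a paralog of gadd45ba, held 48 and 49 in gata4:EGFP+, 186 and 136 in myl7:nucDsRed+, 33 and 57 in junba, and 44 and 54 in junbb libraries. Unlike the gadd45ba promoter, it was as low in the overexpressing as in the gata4:EGFP+ libraries, and it fell by 1.76 with junba and by 1.61 with junbb. The promoter of gadd45aa was not called in any comparison with myl7:nucDsRed+ (−0.26, −0.32 and −0.37). In the ier family ier5 was the called peak of 5 in gata4:EGFP+ cells, and the promoter of ier5l was not called (−0.21).

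The klf family had 22 tested peaks. From myl7:nucDsRed+ to gata4:EGFP+, klf2a was higher (1.42) and klf13 lower (−1.30). With junba 7 were higher and 1 lower, led by klf2b (1.97) and klf1 (−1.44), and with junbb 9 were higher and 0 lower, led by klf2a (2.597). The klf9 peaks were 2 of the 7 and 3 of the 9. Of the 19 klf peaks that were not member peaks, 5 were higher with junba and 6 with junbb. Over all tested peaks 10.3% and 12.6% were higher, and among promoter peaks 11.9% in either comparison. The klf1 peak was weak, with 12 and 23 in myl7:nucDsRed+ and 8 and 0 in junba libraries. The genes klf2a and klf2b are also on the list of endothelial markers.

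Of 23 tested peaks of the BCL2 family 0 were called in gata4:EGFP+ cells. With junba 5 were higher and 1 lower, and with junbb 4 and 2, in both cases with mcl1a among the higher ones. Over all tested peaks 10.3% and 12.6% were higher, and 15.9% and 16.3% lower. The largest changes in this family were at the pro-apoptotic genes baxb (1.68 and 1.74) and bada (−1.81 and −1.72). Both of these peaks were weak. The baxb peak held 3 and 8 in myl7:nucDsRed+, 23 and 33 in junba, and 35 and 24 in junbb libraries. The called bada peak held 25 and 43 in myl7:nucDsRed+, 8 and 4 in junba, and 6 and 7 in junbb libraries. A stronger bada peak, 715 bp from the start site, held 130 and 130, 173 and 126, and 158 and 157 in the same order. The promoter of mcl1b, the paralog of mcl1a, held 83 and 55 in gata4:EGFP+, 121 and 118 in myl7:nucDsRed+, 79 and 163 in junba, and 150 and 155 in junbb libraries. It was not called with junba (−0.07) or junbb (0.34).

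Since dusp1 and klf9 respond to glucocorticoids, a list of 13 glucocorticoid-induced genes was set beside them. Of 13 tested peaks 2 were lower and 0 higher in gata4:EGFP+ cells, dusp1 and tsc22d3, the gene of the leucine zipper protein GILZ (−1.004). With junba 3 were higher, 2 klf9 peaks and fkbp5 (0.83), and a distal cebpd peak was lower (−1.16). With junbb 5 were higher, 3 of them klf9 peaks and the largest of the others mt2 (1.68), and the distal cebpd peak was lower (−1.25). Over all tested peaks 6.61% were lower in gata4:EGFP+ cells, and 10.3% and 12.6% were higher with junba and junbb. Of the 9 tested peaks of this list that were not member peaks, 1 was lower and 0 higher in gata4:EGFP+ cells. With junba 1 of the 9 was higher and 1 lower, and with junbb 2 were higher and 1 lower. Against junba, gata4:EGFP+ cells had 5 lower and 1 higher (median −0.44), and against junbb 6 lower and 1 higher (median −0.57). In both of these dusp1 and 2 klf9 peaks were among the lower ones, and the distal cebpd peak was the higher one (1.11 and 1.20). The list was chosen to hold members, so these counts partly repeat theirs. Of its 9 tested peaks that were not member peaks, 2 were lower and 1 higher against junba (median −0.36). Against junbb 3 of them were lower and 1 higher (median −0.28). Over all tested peaks 11.8% and 13.8% were lower, and among promoter peaks 19% and 18.2%. Against myl7:nucDsRed+, dusp1 was called in gata4:EGFP+ cells and klf9 in the overexpressing ones.

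**Figure D5:**
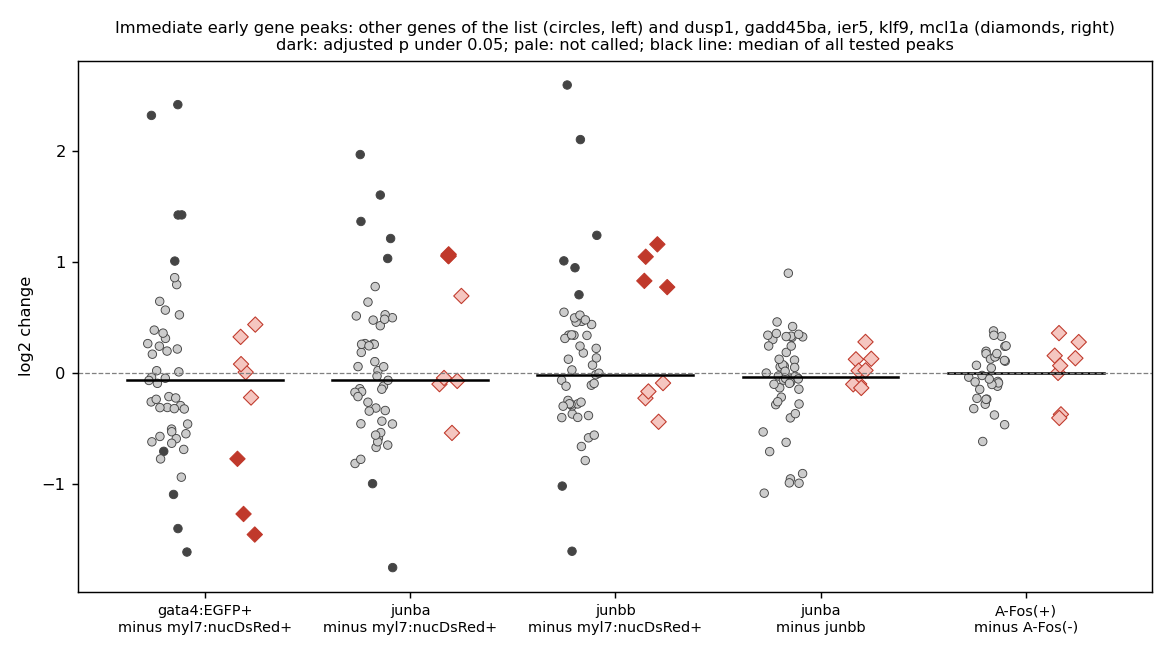
Log2 change of each tested peak of the immediate early genes in 5 comparisons, with circles for the other genes of the list, diamonds for the member peaks, dark fill where the adjusted p was under 0.05 and a black line at the median of all tested peaks. The dusp1, gadd45ba and ier5 promoters lie low in gata4:EGFP+ cells, and the mcl1a and klf9 peaks lie high with junba and junbb.

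For each member the 3 peaks of other genes with the nearest pattern over the 8 libraries of the shared table were found. Nearness was the root mean square difference of the log2 values after each peak was centred on its mean. For the dusp1 promoter these were nfe2l1b (0.12), rfng and glrx, and for the gadd45ba promoter tuba1b (0.13), trnt1 and znf292b. For ier5 they were mfge8b (0.12), rps6ka5 and hspa9, for the klf9 gene body ccdc136b (0.12), ptges3a and arl5c, and for mcl1a pfkla (0.14), dnajc15 and wu:fa19b12. The members' own root mean square around their mean was 0.37 for ier5 to 0.60 for dusp1. The values of nfe2l1b show the likeness, with 62 and 43 in gata4:EGFP+, 136 and 120 in myl7:nucDsRed+, 154 and 120 in junba, and 118 and 131 in junbb libraries.

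Within 25 kb of the member start sites the shared table held further peaks that the authors assigned to another gene or to none. A peak 14270 bp downstream of the gadd45ba start (chr11:6470175-6470656) went opposite to the promoter. It held 44 and 53 in gata4:EGFP+, 16 and 14 in myl7:nucDsRed+, 5 and 6 in junba, and 8 and 7 in junbb libraries, a rise of 1.42 from myl7:nucDsRed+ to gata4:EGFP+ (limma adjusted p = 0.0158). It was also higher in gata4:EGFP+ than in junba (2.35, limma adjusted p = 0.000233) and junbb (2.09, adjusted p = 0.000578). Peaks away from promoters were higher in gata4:EGFP+ as a class. The 9123 tested peaks not within 500 bp of a start site had median log2 changes of 0.10 against myl7:nucDsRed+, 0.52 against junba and 0.51 against junbb. Over all tested peaks 12.3%, 21.2% and 21.2% were higher in the same order. At ier5 a peak 23614 bp downstream held 31 and 31 in gata4:EGFP+, 8 and 21 in myl7:nucDsRed+, 8 and 0 in junba, and 12 and 9 in junbb libraries. It differed between gata4:EGFP+ and junba (2.16, adjusted p = 0.00192) and not detectably between gata4:EGFP+ and myl7:nucDsRed+ (0.97, adjusted p = 0.164).

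Near mcl1a the peak of ensa, at −6529 bp from the mcl1a start, was lower in gata4:EGFP+ (−1.08, limma adjusted p = 0.0354) and junba (−1.30, adjusted p = 0.00979) than in myl7:nucDsRed+ cells. Its direction with junba was opposite to that of the mcl1a promoter. The peaks near dusp1, one of ergic1 and one with no gene, were not called against myl7:nucDsRed+. The one with no gene, at −20768 bp from the dusp1 start, held 37 and 29 in gata4:EGFP+, 46 and 43 in myl7:nucDsRed+, 88 and 65 in junba, and 48 and 65 in junbb libraries. It was lower in gata4:EGFP+ than in junba (−1.09, limma adjusted p = 0.00951), the direction of the dusp1 promoter, and did not pass against junbb (−0.69, adjusted p = 0.0829). There was no other peak at klf9 in this window. Whether any of these peaks acts on a member was not tested.

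Markers of several cell types also differed between the groups of the shared table. The 13 peaks at 11 of 14 cardiomyocyte marker genes summed to 561 to 601 normalized counts in gata4:EGFP+, 1187 to 1295 in myl7:nucDsRed+, 288 to 520 in junba and 268 to 303 in junbb libraries, with no peak at vmhc, myh7 or tpma. The 13 peaks at 11 of 15 endothelial and endocardial marker genes summed to 256 to 265, 125 to 135, 460 to 526 and 711 to 764 in the same order, with no peak at tie1, sox7, tek or pecam1. The 3 peaks at 2 of 11 leukocyte marker genes summed to 71 to 76, 20 to 26, 18 to 42 and 23 to 25. Of these 3, 1 was tested, a peak 4477 bp from the start site of irf8 (means 66 in gata4:EGFP+ and 13 in myl7:nucDsRed+). In the same group order, 2 peaks at 2 of 9 erythroid and thrombocyte marker genes summed to 62 to 74, 137, 24 to 33 and 41 to 42. For smooth muscle (2 peaks, 2 of 6 genes) the sums were 19 to 37, 39 to 58, 14 to 20 and 19 to 27. For neural and Schwann markers (1 peak, 1 of 7 genes) they were 26 to 28, 4 to 6, 14 to 26 and 11 to 14. The 6 peaks at 6 of 12 epicardial and fibroblast marker genes summed to 236 to 264, 223 to 228, 172 to 215 and 206 to 213. Of the 4 peaks of this list that were tested, 2 were higher and 1 lower in gata4:EGFP+ than in myl7:nucDsRed+ cells. By group means col6a1 (43 against 2.5, limma adjusted p = 0.000722) and col1a2 (47 against 17.5, log2 1.20, adjusted p = 0.0206) were higher and tgfb3 (108 against 182, −0.73, adjusted p = 0.0239) was lower. Of the 13 cardiomyocyte marker peaks, 5 were lower in gata4:EGFP+, 10 with junba and 11 with junbb than in myl7:nucDsRed+ cells. The myl7 promoter was among the 5 (means 45 against 314). In gata4:EGFP+ cells 0 were higher. The 1 higher peak with junba and with junbb lay 4500 bp from the start site of myl7 (1.68 and 1.22). Of the 12 tested endothelial and endocardial marker peaks, 3, 9 and 11 were higher in the same order and 0 lower. Over all tested peaks 6.61%, 15.9% and 16.3% were lower, and 12.3%, 10.3% and 12.6% higher. The mitochondrial share of the summed values set gata4:EGFP+ apart, with 72.0 to 73.4%, against 83.4 to 86.7% in myl7:nucDsRed+, 87.7 to 87.9% in junba and 82.8 to 85.6% in junbb libraries. The part of these differences in the values at dusp1, gadd45ba, ier5, mcl1a and klf9 was not tested. A peak in the A-Fos table was found at 1 of 14 cardiomyocyte marker genes (17 to 40 with A-Fos, 20 to 31 without) and 2 of 15 endothelial ones (63 to 72 and 70 to 81), so the label of that table could hardly be checked.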

How the data were processed

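Both tables hold a score made by the authors: per the file headers and the submitters' processing notes, normalized counts per peak, which are background-corrected reads divided by size factors and rounded, each table by itself. Per the file headers, further columns hold the gene, the distance to its start site in bp, and how far a peak overlaps the gene body, as a fraction. The submitters' processing notes name the aligner STAR 2.6.1d, the peak caller MACS2, DESeq2 1.18.1 and DESeq, besides Trimmomatic 0.36, deepTools 2.5.7 and Picard 2.18.16. Peak thresholds and shifts to the cut site are not given in the sources used here. Coordinates are given as deposited, since no source says from which base they count.

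The mitochondrial peak was left out. The test was limma 3.58.1 (R 4.3.3), for peaks whose mean reached 10, on log2(value + 5), with trend and robust empirical Bayes moderation, two-sided, with calls at a p under 0.05 after Benjamini-Hochberg adjustment over all tested peaks. The shared table was fitted with its 4 groups together (8 libraries) and the A-Fos table with 3 against 3. Fold changes are on the log2(value + 5) scale, which understates changes of low peaks. The value of 1 read was estimated from the spacing of the values, which fits some libraries poorly, so read numbers are approximate. The model was also run on simulated counts with known changes. These had a common spread and equal depth in all libraries, unlike the real values, so that run cannot show how the model does on them. Tables were handled with Python 3.11.15, NumPy 2.4.6 and pandas 2.3.3, figures with Matplotlib 3.10.9.

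The members and gene lists were chosen with earlier results of these data known. Named genes are all member peaks, their paralogs, the largest called change in each direction per list and comparison, and the 3 peaks nearest in pattern to each member. The 25 kb window and the neighbouring peaks were chosen after their values were seen. Alternatives were the pseudocount, the filter, the scaling, the groups fitted, the moderation, a replicate block and leaving out each library, where a lone library of a group is assumed to vary like the others. Leaving out a library also lowers the power at every peak. A call can therefore end while its estimate stays the same, and an ended call alone does not show dependence on that library.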

Additional observations from a re-analysis of the deposited data

How the results depend on the processing

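Leaving out one library gave 2 to 3 called member peaks for gata4:EGFP+ minus myl7:nucDsRed+, 0 to 4 for junba minus myl7:nucDsRed+, 0 to 3 for junbb minus myl7:nucDsRed+, 1 to 5 for gata4:EGFP+ minus junba and for gata4:EGFP+ minus junbb, and 0 for junba minus junbb and for A-Fos. These counts alone do not show dependence on a library, since an omission lowers the power at every peak. Among the other settings, plain empirical Bayes gave 2 calls for junbb minus myl7:nucDsRed+ and 3 for gata4:EGFP+ minus junba. Over all tested peaks it gave 1692 higher in the first, against 1855 in the main setting. In the second it gave 1341 lower, against 1749. For gata4:EGFP+ minus junba, equal totals gave 2 calls, centring on promoter peaks 2 and quantile normalization 3, and for gata4:EGFP+ minus junbb centring gave 1. Lower peaks over the whole table then numbered 1106, 699 and 2690 against junba, where the main setting gave 1749. Against junbb they numbered 852 with centring, where the main setting gave 2038. The calls at the dusp1 and gadd45ba promoters in gata4:EGFP+ minus myl7:nucDsRed+ held in 10 of 10 other settings (−1.52 to −1.22 and −1.31 to −1.03). The call at ier5 ended under equal totals, centring, quantile normalization and plain empirical Bayes (limma adjusted p 0.0919 to 0.204). In the same order 302, 436, 1418 and 675 of all tested peaks were lower in this comparison, against 977 in the main setting. Over all peaks the median change moved with centring from −0.06 to 0.14 in gata4:EGFP+ minus myl7:nucDsRed+, from 0.04 to 0.38 in gata4:EGFP+ minus junba and from 0.01 to 0.36 in gata4:EGFP+ minus junbb, and equal totals moved it from −0.02 to 0.24 in junbb minus myl7:nucDsRed+. Relative to the median the dusp1 promoter changed by −1.40 with centring and −1.37 with equal totals.

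Signs turned at uncalled peaks only. With equal totals these were 0.0137 for mcl1a in gata4:EGFP+ minus myl7:nucDsRed+; 0.0225 for dusp1, 0.0622 downstream of gadd45ba and 0.0526 for ier5 in junba minus myl7:nucDsRed+; 0.0674, 0.098 and 0.2075 for the same peaks with junbb; and −0.0449, −0.0358 and −0.155 for the same peaks and −0.1522 for the klf9 gene body in junba minus junbb. In A-Fos they were −0.07 downstream of gadd45ba, −0.1321 for ier5 and −0.1763 upstream of klf9. With quantile normalization they were −0.0043 (gata4:EGFP+ minus myl7:nucDsRed+), −0.0853 (minus junba) and 0.081 (junba minus myl7:nucDsRed+) downstream of gadd45ba, 0.0229 (junbb minus myl7:nucDsRed+) and −0.0713 (junba minus junbb) for ier5, and −0.0671 for the klf9 gene body in junba minus junbb. Centring gave 0.0822 for the klf9 promoter in gata4:EGFP+ minus junba, and a pseudocount of 20 gave −0.0067 downstream of gadd45ba in gata4:EGFP+ minus myl7:nucDsRed+ and 0.0029 for the gadd45ba promoter in A-Fos. The cause was not tested. Omitting one library also turned signs at uncalled peaks. Downstream of gadd45ba the range was −0.3981 to 0.4093 in gata4:EGFP+ minus myl7:nucDsRed+, −0.1757 to 0.28 and −0.017 to 0.3649 in gata4:EGFP+ minus junba and minus junbb, −0.4502 to 0.3571 and −0.572 to 0.2353 in junba and junbb minus myl7:nucDsRed+, −0.106 to 0.3496 in junba minus junbb, and −0.0075 to 0.4122 in A-Fos. For ier5 it was −0.2711 to 0.1249 and −0.2904 to 0.1055 in junba and junbb minus myl7:nucDsRed+, −0.032 to 0.0707 in junba minus junbb, and −0.1504 to 0.4149 in A-Fos. Upstream of klf9 it was −0.2213 to 0.3782 in gata4:EGFP+ minus myl7:nucDsRed+, −0.379 to 0.1717 in junba minus junbb and −0.1494 to 0.2333 in A-Fos. In junba minus junbb it was −0.3748 to 0.1022 for the klf9 promoter and −0.3444 to 0.3882 for the klf9 gene body. For mcl1a in gata4:EGFP+ minus myl7:nucDsRed+ it was −0.5564 to 0.111, and for the gadd45ba promoter in A-Fos −0.1911 to 0.1846.

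The replicate numbers were not taken as pairs, since the labels do not say that same-numbered libraries belong together. Same-numbered A-Fos libraries deviated together by a correlation of 0.0823 to 0.28, above the −0.242 to 0.0307 of differently numbered ones. With 3 libraries a group the deviations sum to 0, which partly forces the lower values of the differently numbered ones. In the shared table the range for same-numbered libraries was −0.0323 to 0.0204. There the 2 libraries of a group deviate by equal and opposite amounts. The range for differently numbered ones is thus fixed by the first and gives no comparison. Whether the A-Fos numbers mark pairs was not settled. With the replicate number as a block the calls at member peaks stayed at 3, 3, 4, 6 and 6 in the comparisons that had any, and at 0 for junba minus junbb and for A-Fos.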
